A study of Mus with 15 samples.

Results

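Genes for glucose uptake and glycolysis were followed across sorted mouse thymocytes. They were the glucose transporter genes Slc2a1 and Slc2a3, the hexokinase genes Hk1 and Hk2, and the genes Pfkp, Aldoa, Pgk1, Eno1, Pkm and Ldha for later steps of the pathway. The 10 genes were picked by name for their place in the pathway, with earlier results of these data known, from the 55573 genes of the count table, and all 10 passed the filter on low counts. The thymocytes came from female mice of 6 weeks, strain C57Bl/6 x Foxp3-GFP, a reporter that marks cells making FOXP3 with green fluorescence. All gates took live CD4+ CD8- cells with the T cell receptor beta chain and without CD73. Conventional cells lacked both CD25 and FOXP3. Of the progenitors, the CD25+ gate took cells with CD25 and no FOXP3 and the FOXP3lo gate cells with a low level of FOXP3 and no CD25, while mature Tregs (regulatory T cells) carried both proteins. These 4 gates excluded the membrane protein BST2, whereas the Bst2+ gate required it together with CD25, FOXP3 or both. Bulk RNA was sequenced in 3 libraries per gate, numbered 40, 42 and 43, from 1 experiment with 3 biological replicates. Nothing states whether a replicate is 1 mouse or a pool, so p-values measure the spread between these samples.

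Glucose enters T cells through facilitative transporters, chiefly GLUT1 (Slc2a1) and GLUT3 (Slc2a3), and hexokinase traps it by adding a phosphate. Glycolysis then splits the sugar and yields ATP at the phosphoglycerate kinase and pyruvate kinase steps, and lactate dehydrogenase can turn the pyruvate into lactate, which restores the NAD+ the pathway needs. T cells are known to raise this pathway when they are activated and divide, and in peripheral Tregs FOXP3 has been described to restrain it.

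The 12 libraries of the 4 gates without BST2 held 12597114 to 23758157 counts, and the 3 Bst2+ libraries held 10816064 to 15616995. The Bst2+ libraries stood apart from the others, with 14685 to 17198 genes with a count against 18355 to 23382, 14.07 to 19.56% of counts from mitochondrial ribosomal RNA against 9.51 to 11.67%, and a coefficient of variation among replicates of 1.125 against 0.141 to 0.210. They also carried transcripts of other cells, for dendritic cell and macrophage markers a summed 688 to 1201 CPM (the usual depth-scaled unit, here with TMM library sizes) against 1.84 to 9.28 CPM elsewhere. The 4 gates were therefore compared with each other in a fit of their 12 libraries, and the Bst2+ gate is described last. The gates matched their labels in Foxp3, with means of 0.951, 3.20, 290.0 and 598 CPM in the conventional, CD25+, FOXP3lo and mature Treg gates. Il2ra, the gene of CD25, followed the gates less sharply, with 9.07, 289, 107 and 1152 CPM in the same order, and Cd4 averaged 531 to 859 CPM over all 5 gates. Bst2 did not separate the Bst2+ libraries, at 15.7 to 50.3 CPM, from those of CD25+ progenitors, at 12.3 to 17.05, or of mature Tregs, at 11.3 to 18.3.

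The transporters and the later enzymes ordered the gates differently. CD25+ progenitors had the lowest mean levels of both transporter transcripts among the 4 gates and the highest of Hk2, Pfkp, Aldoa, Pgk1, Pkm and Ldha. FOXP3lo progenitors had the lowest mean levels of Hk2, Aldoa, Pgk1, Eno1, Pkm and Ldha, and their transporter transcripts were not called different from those of conventional cells. Mature Tregs combined the highest mean transporter transcripts with more Hk2 than either gate lacking CD25, and with levels of Pfkp, Pgk1, Eno1 and Pkm below those of conventional cells. In sum over the 10 genes, CD25+ progenitors had 1779 ± 92.3 CPM, conventional cells 1576 ± 43.0, mature Tregs 1372 ± 82.2 and FOXP3lo progenitors 1178 ± 15.8 (mean ± SD, n = 3 libraries). In bulk samples fewer expressing cells and less RNA per cell cannot be told apart.

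**Figure D1:**
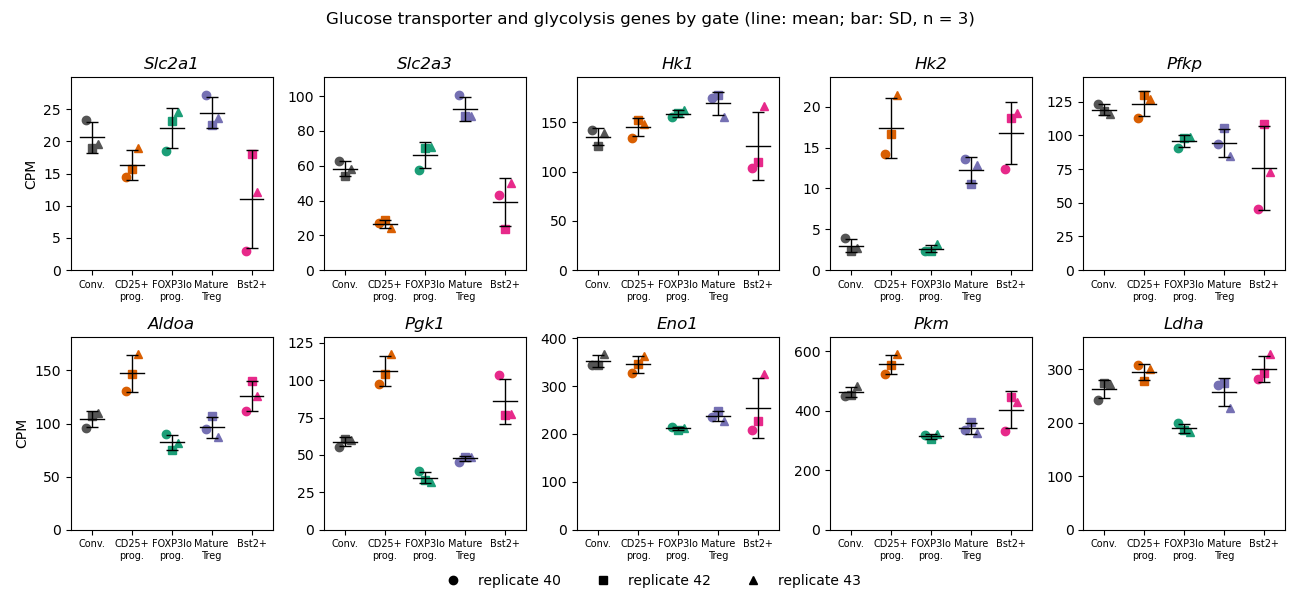
CPM of the 10 genes in each library (y axis, starting at 0) by gate (x axis), with 1 point per library, marked by replicate number, and the mean ± SD of 3 libraries in black. Slc2a3 is lowest in CD25+ progenitors among the 4 gates without BST2 and highest in mature Tregs, whereas Aldoa, Pgk1 and Pkm are highest in CD25+ progenitors, and the Bst2+ points of Slc2a1, Hk1, Pfkp and Eno1 are widely spread.

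Genes were called at an adjusted p under 0.05 (edgeR's quasi-likelihood test, Benjamini-Hochberg over all 15648 genes tested). The progenitor gates differed from each other in most of the genes. Against FOXP3lo progenitors, CD25+ progenitors had 7 of the 10 genes higher (Hk2, Pfkp, Aldoa, Pgk1, Eno1, Pkm and Ldha) and 2 lower (Slc2a1 and Slc2a3), where 19.9% of all genes were called higher and 19.7% lower. The libraries of those gates did not overlap for 9 of the 10 genes, Slc2a1 being the exception. How often libraries were apart over all genes was not counted, so no share stands beside this number. The median log2 fold change of the 10 genes was 0.67, against −0.016 over all genes tested. Against conventional cells, CD25+ progenitors had 4 genes higher (Hk2, Aldoa, Pgk1 and Pkm) and 1 lower (Slc2a3), beside 14.7% and 14.3% of all genes, with a median of 0.13 against −0.013.

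FOXP3lo progenitors had 6 of the 10 genes lower than conventional cells (Pfkp, Aldoa, Pgk1, Eno1, Pkm and Ldha) and 1 higher (Hk1). Over all genes 12.3% were called lower and 12.8% higher, and the median was −0.33 for the 10 genes against −0.015. Mature Tregs had 3 genes higher than conventional cells (Slc2a3, Hk1 and Hk2) and 4 lower (Pfkp, Pgk1, Eno1 and Pkm), beside 15.1% and 15.3% of all genes and with a median of −0.068 against −0.0066. Relative to CD25+ progenitors, mature Tregs had 3 genes higher (Slc2a1, Slc2a3 and Hk1) and 6 lower (Pfkp, Aldoa, Pgk1, Eno1, Pkm and Ldha), beside 15.9% and 16.8% of all genes, with a median of −0.45 against −0.013. Relative to FOXP3lo progenitors they had 4 genes higher (Slc2a3, Hk2, Pgk1 and Ldha) and 0 lower, beside 9.37% and 9.29% of all genes, with a median of 0.20 against 0.0025. These comparisons share gates, so their counts are not independent of each other.

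**Figure D2:**
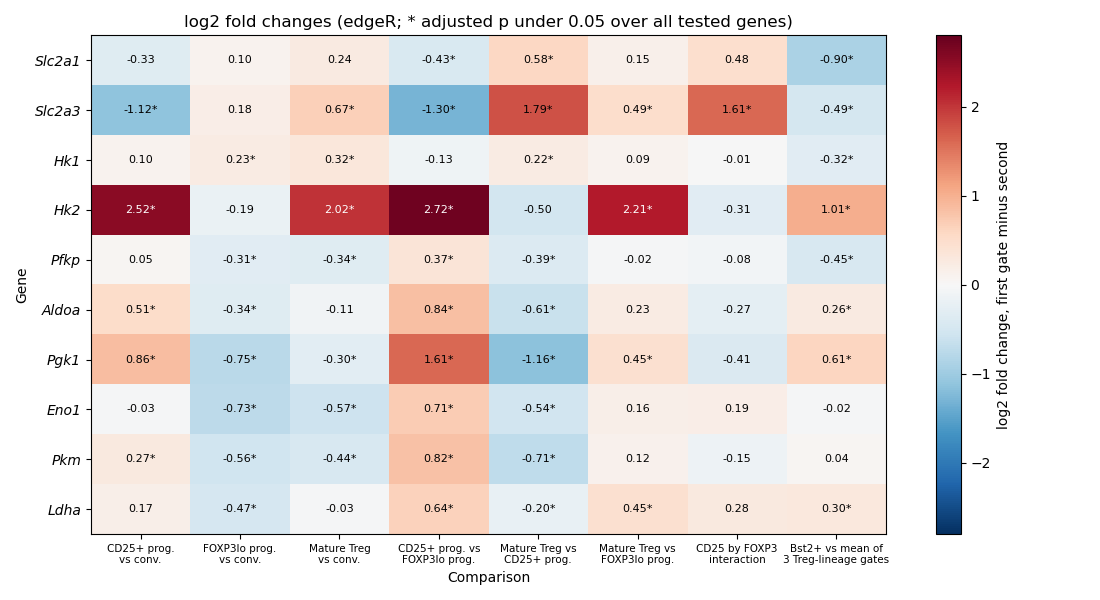
Log2 fold changes (colour and number, first gate minus second) of the 10 genes (rows) in the 8 comparisons (columns), with an asterisk at an adjusted p under 0.05. The column of CD25+ against FOXP3lo progenitors runs from −1.30 for Slc2a3 to 2.72 for Hk2, and Slc2a3 alone has an asterisk in the interaction column.

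Per kilobase of annotated exon, a scale for setting genes beside each other, the lower part of the pathway was the most abundant in conventional cells. Pkm stood at 92.5 ± 3.55 CPM per kb, Ldha at 79.3 ± 5.15 and Eno1 at 65.4 ± 2.30. Aldoa, at 35.7 ± 2.60, and Pgk1, at 26.2 ± 1.38, came next on the same scale, followed by Hk1 at 15.9 ± 0.990. Pfkp, Slc2a3 and Slc2a1 were close together, at 8.88 ± 0.292, 8.04 ± 0.611 and 5.88 ± 0.676 CPM per kb, and Hk2 was lowest at 0.499 ± 0.134 (mean ± SD, n = 3). The length takes in every annotated exon, 13401 bases for Pfkp and 2244 for Pgk1, and the order depends on it. In CPM, Pkm, Eno1 and Ldha also led in conventional cells, at 462, 352 and 263. Hk1 (136) and Pfkp (119), however, exceeded Aldoa (104) and Pgk1 (58.8) in CPM. Several of the 10 genes have processed pseudogene copies in the mouse genome, Eno1 the near-identical Eno1b. Read pairs with a mapping quality under 10 were not counted, so the levels of such genes against other genes are uncertain. Slc2a1, Slc2a3 and Pkm each overlap 1 other annotated gene on the same strand, and their counts in the shared stretch are uncertain.

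The transporter transcripts parted from the enzymes. Slc2a3 (ENSMUSG00000003153, chromosome 6, 122727809 to 122801640), which encodes GLUT3, a high-affinity transporter, was at 62.8, 54.0 and 57.9 CPM in conventional replicates 40, 42 and 43. CD25+ progenitors had 26.9, 29.0 and 24.4 CPM in the same order, and FOXP3lo progenitors had 57.8, 70.0 and 70.7. Mature Tregs had 101, 88.5 and 88.8 CPM. Every CD25+ progenitor library lay below every library of the other 3 gates, and every mature Treg library lay above them. On the log2 scale Slc2a3 differed between CD25+ progenitors and conventional cells by −1.12 ± 0.11 (edgeR, adjusted p = 1.95e-11), and between mature Tregs and CD25+ progenitors by 1.79 ± 0.11 (adjusted p = 2.82e-17), a fold of 3.45. Mature Tregs also exceeded conventional cells, by 0.67 ± 0.10 (adjusted p = 1.18e-06). FOXP3lo progenitors overlapped with conventional cells and were not called different (0.18, 95% interval −0.025 to 0.39).

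Slc2a1 (ENSMUSG00000028645, chromosome 4, 119108711 to 119137983) encodes GLUT1, the transporter most often tied to T cell activation. It varied less, with 23.3, 18.99 and 19.5 CPM in the conventional libraries and 14.5, 15.7 and 18.95 in those of CD25+ progenitors. FOXP3lo progenitors had 18.5, 23.1 and 24.6 CPM and mature Tregs 27.2, 22.6 and 23.6. The mature Treg libraries all lay above those of CD25+ progenitors, a log2 difference of 0.58 ± 0.16 (edgeR, adjusted p = 0.00532). FOXP3lo and CD25+ progenitor libraries overlapped, and the lower level in CD25+ progenitors, −0.43 ± 0.16 (adjusted p = 0.0326), was no longer called without CD25+ progenitor replicate 40 (−0.35) or 42 (−0.40) or FOXP3lo replicate 42 (−0.40) or 43 (−0.35). Conventional cells were not called different from any of the other 3 gates in Slc2a1, with estimates from −0.33 to 0.24.

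The balance of the transporters shifted with these levels. Within each library the ratio of Slc2a3 to Slc2a1 counts per kb was 1.79 to 1.90 in mature Tregs, 1.39 to 1.51 in FOXP3lo progenitors, 1.30 to 1.43 in conventional cells and 0.623 to 0.899 in CD25+ progenitors. CD25+ progenitors were thus the gate where Slc2a1 exceeded Slc2a3 per kb in all 3 libraries. Before division by exon length, 7245 bases for Slc2a3 and 3506 for Slc2a1, Slc2a3 was the higher there. It was at 24.4 to 29.0 CPM against 14.5 to 18.95, so which transcript leads in that gate depends on the annotated lengths. Ratios of 7 pairs of related genes were compared between the 6 gate pairs, and the libraries were apart in 25 of the 42 comparisons. With 3 libraries against 3, an exact two-sided permutation test cannot go below 0.1, and after Benjamini-Hochberg adjustment over the 42 tests the smallest p was 0.168, so these ratios are given as descriptions.

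**Figure D3:**
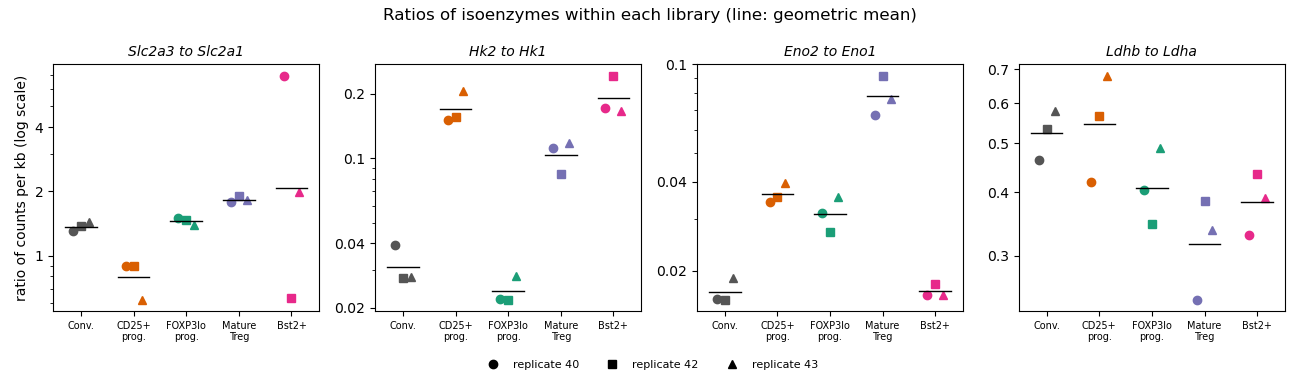
Ratio of counts per kb of paired genes within each library (y axis, log scale) by gate (x axis), for Slc2a3 to Slc2a1, Hk2 to Hk1, Eno2 to Eno1 and Ldhb to Ldha, with 1 point per library and the geometric mean as a line. CD25+ progenitors lie lowest of the 4 gates without BST2 in the first panel and highest of them in the second, and mature Tregs lie highest in the third.

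Hexokinases add the first phosphate to glucose. Hk2 (ENSMUSG00000000628, chromosome 6, 82725025 to 82774454), the inducible isoform, had the widest range of fold among the 10 genes. It was at 3.88, 2.38 and 2.67 CPM in conventional replicates 40, 42 and 43 and at 2.36, 2.40 and 3.18 in FOXP3lo progenitors, against 14.2, 16.7 and 21.4 in CD25+ progenitors and 13.6, 10.5 and 12.8 in mature Tregs. The CD25+ gates, with or without FOXP3, did not overlap with the gates lacking CD25. CD25+ progenitors had 5.76 times the Hk2 level of conventional cells (log2 2.52 ± 0.26, edgeR, adjusted p = 2.52e-10). In mature Tregs it exceeded FOXP3lo progenitors by 2.21 ± 0.27 (adjusted p = 2.46e-08) and conventional cells by 2.02 ± 0.26 (adjusted p = 4.75e-08). Between mature Tregs and CD25+ progenitors the libraries were apart, but edgeR did not call the difference, −0.50 at an adjusted p of 0.109, whereas limma-voom did (−0.51). Even so Hk2 stayed the minor transcript of the pair, since its ratio to Hk1 per kb had a geometric mean of 0.0311 in conventional cells, 0.0239 in FOXP3lo progenitors, 0.104 in mature Tregs and 0.170 in CD25+ progenitors.

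Hk1 (ENSMUSG00000037012, chromosome 10, 62268855 to 62379908), the isoform found in most tissues, was at 142, 126 and 139 CPM in conventional cells and 134, 152 and 149 in CD25+ progenitors. FOXP3lo progenitors had 155, 159 and 162 CPM and mature Tregs 174, 178 and 155. Both FOXP3 gates lay above all conventional libraries, by 0.23 ± 0.07 (edgeR, adjusted p = 0.0208) and 0.32 ± 0.08 (adjusted p = 0.000861) on the log2 scale, and mature Tregs above CD25+ progenitors by 0.22 ± 0.08 (adjusted p = 0.0206). The call in FOXP3lo progenitors was lost without conventional replicate 42 (0.18) or FOXP3lo replicate 42 (0.23) or 43 (0.21). That against CD25+ progenitors was lost without CD25+ progenitor replicate 40 (0.17) or mature Treg replicate 40 (0.20) or 42 (0.18).

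Pfkp (ENSMUSG00000021196, chromosome 13, 6579768 to 6648777) encodes the platelet-type subunit of phosphofructokinase, the committing step of glycolysis. Its levels were 123, 118 and 116 CPM in conventional cells and 113, 130.0 and 127 in CD25+ progenitors, against 90.7, 97.9 and 99.0 in the FOXP3lo gate and 93.3, 105 and 84.3 in mature Tregs. Both gates with FOXP3 lay below both gates without it in every library. Against conventional cells the difference was −0.31 ± 0.08 in FOXP3lo progenitors (edgeR, adjusted p = 0.00384) and −0.34 ± 0.08 in mature Tregs (adjusted p = 0.00161), while CD25+ progenitors and conventional cells overlapped (0.053, 95% interval −0.12 to 0.22). The other subunit genes, Pfkl and Pfkm, ranged in mean from 39.7 to 45.9 CPM and from 24.9 to 34.9 CPM over the 4 gates.

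Pfkfb3 makes fructose 2,6-bisphosphate, the main activator of phosphofructokinase, and it was highest in CD25+ progenitors. It averaged 165 ± 19.5 CPM there, against 60.9 ± 7.70 in conventional cells, 61.3 ± 5.20 in FOXP3lo progenitors and 62.3 ± 2.98 in mature Tregs (SD, n = 3). The log2 difference between CD25+ progenitors and conventional cells was 1.44 ± 0.10 (edgeR, adjusted p = 1.13e-15), and that between mature Tregs and CD25+ progenitors was −1.41 ± 0.10 (adjusted p = 2.17e-15). Of the 5 tested enzymes that make or break down fructose 2,6-bisphosphate, 2 were higher and 0 lower in CD25+ than in FOXP3lo progenitors (median 0.0011). Pfkfb2, another isoform, fell from 14.8 ± 0.473 CPM in conventional cells to 3.72 ± 1.03 in mature Tregs (−1.99 ± 0.26, adjusted p = 7.09e-08).

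Aldoa (ENSMUSG00000030695, chromosome 7, 126795234 to 126800751), the aldolase that splits fructose 1,6-bisphosphate, was at 95.4, 107 and 109.7 CPM in conventional cells and at 130.4, 147 and 165 in CD25+ progenitors. FOXP3lo progenitors had 90.0, 75.2 and 81.3 CPM and mature Tregs 94.9, 107 and 87.5. All CD25+ progenitor libraries lay above all libraries of the other 3 gates. The log2 difference was 0.51 ± 0.09 from conventional cells (edgeR, adjusted p = 1.82e-05) and 0.84 ± 0.09 from FOXP3lo progenitors (adjusted p = 3.42e-10). Mature Tregs and conventional cells overlapped and were not called different (−0.11, 95% interval −0.29 to 0.077).

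Pgk1 (ENSMUSG00000062070, chromosome X, 106187100 to 106203699) encodes phosphoglycerate kinase, the first ATP-yielding step, and separated all 4 gates. It was at 97.7, 104 and 117 CPM in CD25+ progenitors and at 55.3, 61.0 and 60.2 in conventional cells. Mature Tregs had 45.5, 48.9 and 48.6 CPM and FOXP3lo progenitors 39.3, 33.5 and 31.9, and no library of any gate overlapped with those of another. CD25+ progenitors exceeded FOXP3lo progenitors 3.05-fold (log2 1.61 ± 0.10, edgeR, adjusted p = 1.05e-16) and conventional cells by 0.86 ± 0.10 (adjusted p = 2.87e-09). Mature Tregs stood above FOXP3lo progenitors by 0.45 ± 0.10 (adjusted p = 0.0011). They stood below conventional cells (log2 −0.30 ± 0.10, adjusted p = 0.0195), a call lost without conventional replicate 42 (−0.28) or 43 (−0.29) or mature Treg replicate 40 (−0.27).

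The enzymes just before and after Pgk1 also had their highest means in CD25+ progenitors. Gapdh, the oxidising step, averaged 65.3 ± 3.24 CPM in CD25+ progenitors, 35.9 ± 2.52 in conventional cells, 37.7 ± 0.801 in mature Tregs and 29.0 ± 1.99 in FOXP3lo progenitors. Tpi1, triose phosphate isomerase, averaged 29.5 ± 1.12 CPM in CD25+ progenitors and 6.76 ± 1.91 in FOXP3lo progenitors, a log2 difference of 2.12 ± 0.20 (edgeR, adjusted p = 6.59e-12). Pgam1, phosphoglycerate mutase, was lower in mature Tregs than in CD25+ progenitors (log2 −1.34 ± 0.21, adjusted p = 1.36e-06). Gapdh, Tpi1 and Pgam1 have many pseudogene copies in the mouse genome, so their low counts beside Pkm or Eno1 are uncertain as levels.

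Eno1 (ENSMUSG00000063524, chromosome 4, 150236721 to 150248879), the main enolase of lymphocytes, split the gates by FOXP3. The conventional libraries had 345, 345 and 366 CPM and those of CD25+ progenitors 327, 346 and 362. FOXP3lo progenitors had 215, 208 and 212 CPM and mature Tregs 236, 247 and 227. All 6 libraries with FOXP3 lay below all 6 without it. Relative to conventional cells the log2 difference was −0.73 ± 0.06 in FOXP3lo progenitors (edgeR, adjusted p = 4.68e-12) and −0.57 ± 0.06 in mature Tregs (adjusted p = 1.88e-09). CD25+ progenitors and conventional cells overlapped (−0.027, 95% interval −0.16 to 0.10).

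The other enolase genes had their highest means in gates with CD25. Eno3, the isoform best known from muscle, averaged 94.9 ± 19.02 CPM in CD25+ progenitors, 52.9 ± 4.92 in mature Tregs, 20.5 ± 1.43 in the FOXP3lo gate and 13.2 ± 1.64 in conventional cells. Its highest level was 7.25 times its lowest (log2 2.86 ± 0.14, edgeR, adjusted p = 2.8e-20). Eno2, the isoform best known from neurons, averaged 5.20 ± 0.715 CPM in conventional cells and 16.3 ± 3.10 in mature Tregs (1.65 ± 0.24, adjusted p = 4.31e-07). The Eno2 to Eno1 ratio per kb was 0.0159 to 0.0189 in conventional libraries and 0.0675 to 0.0917 in those of mature Tregs, apart from each other.

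Pkm (ENSMUSG00000032294, chromosome 9, 59656368 to 59679375) encodes the pyruvate kinase of lymphocytes, and the gene counts do not separate its M1 and M2 splice forms. It was the most counted of the 10 genes, at 450.1, 454 and 483 CPM in conventional cells and 524, 554 and 589 in CD25+ progenitors. FOXP3lo progenitors had 317, 305 and 321 CPM and mature Tregs 334, 361 and 326. The order of the gates was the same as for Pgk1, and neighbours in it did not overlap. CD25+ progenitors exceeded conventional cells by 0.27 ± 0.06 (edgeR, adjusted p = 0.000981) and mature Tregs stood below them (log2 −0.44 ± 0.06, adjusted p = 4.44e-07). The step from FOXP3lo progenitors to mature Tregs was not called (0.12 ± 0.06, adjusted p = 0.24).

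Ldha (ENSMUSG00000063229, chromosome 7, 46841475 to 46855627), the lactate dehydrogenase subunit that favours lactate formation, was lowest in FOXP3lo progenitors. They had 199, 186 and 183 CPM, against 243, 274 and 271 in conventional cells. CD25+ progenitors had 308, 278 and 299 CPM and mature Tregs 270.1, 274 and 228. Every FOXP3lo library lay below every library of the other 3 gates. The log2 difference was −0.47 ± 0.07 from conventional cells (edgeR, adjusted p = 1.96e-06), and mature Tregs exceeded FOXP3lo progenitors by 0.45 ± 0.07 (adjusted p = 9.9e-06). Mature Tregs overlapped with conventional cells (−0.028, 95% interval −0.17 to 0.12). All CD25+ progenitor libraries lay above the conventional ones (0.17, 95% interval 0.024 to 0.32). EdgeR did not call this difference (adjusted p = 0.0744), but did with a filter of 2 CPM (adjusted p = 0.0334), as did limma-voom (adjusted p = 0.036). The call of mature Tregs against CD25+ progenitors, −0.20 ± 0.07 (edgeR, adjusted p = 0.0314), was lost without CD25+ progenitor replicate 40 (−0.17) or 43 (−0.19) or mature Treg replicate 43 (−0.14). Ldhb, the subunit that favours the reverse reaction, was below Ldha in every library, with a ratio per kb of 0.464 to 0.579 in conventional cells and 0.246 to 0.385 in mature Tregs.

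Lactate leaves cells through monocarboxylate transporters. Slc16a3, which encodes the exporter MCT4, averaged 17.6 ± 2.27 CPM in CD25+ progenitors, 15.5 ± 5.40 in mature Tregs, 6.24 ± 1.48 in the FOXP3lo gate and 1.96 ± 0.514 in conventional cells. The difference between CD25+ progenitors and conventional cells was 3.13 ± 0.28 (edgeR, adjusted p = 5.88e-12). Slc16a1, which encodes MCT1, averaged 54.4 ± 5.20 CPM in CD25+ progenitors and 21.1 ± 2.08 in FOXP3lo progenitors (1.37 ± 0.13, adjusted p = 1.65e-11). Of the partner proteins that carry these transporters to the surface, Bsg differed between CD25+ progenitors and conventional cells by 0.38 ± 0.09 and Emb by −1.36 ± 0.08 (adjusted p = 0.00126 and 5.49e-17). Over the export list, 4 of 5 tested genes were higher and 1 lower in CD25+ than in FOXP3lo progenitors.

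**Figure D4:**
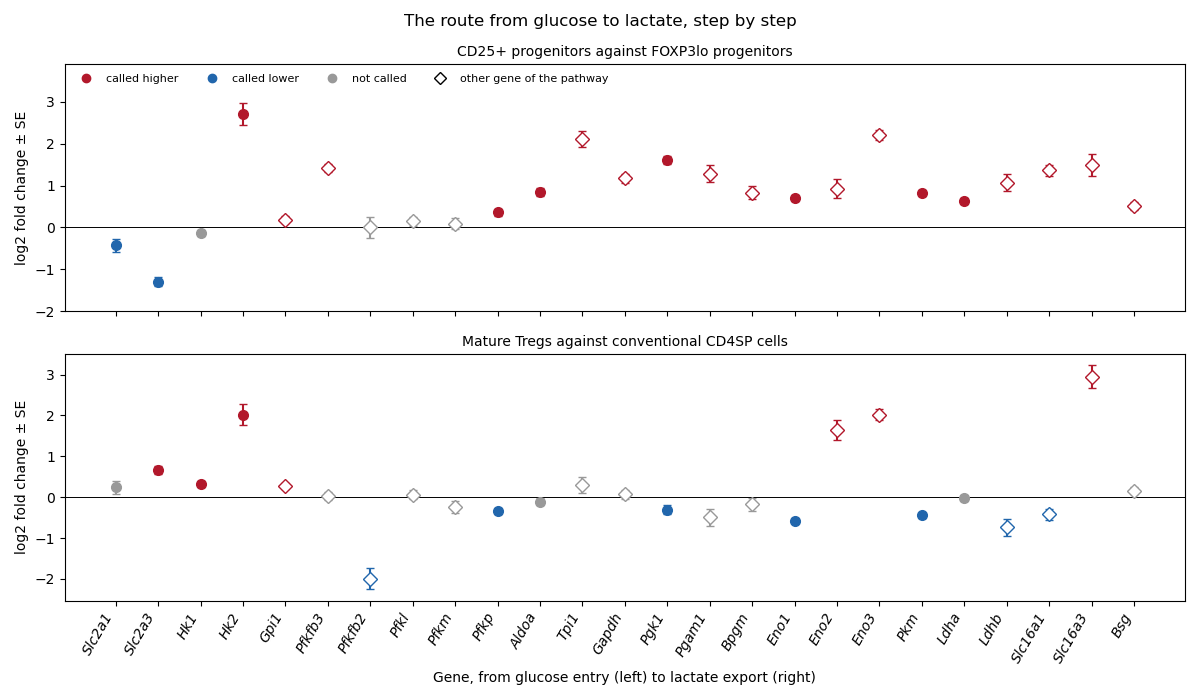
Log2 fold changes ± SE (y axis) along the route from glucose entry to lactate export (x axis), for CD25+ against FOXP3lo progenitors (top) and mature Tregs against conventional cells (bottom). Filled circles are the 10 genes and open diamonds other genes of the pathway, in red where called higher, blue where called lower and grey where not called. In the top panel the transporters lie at −0.43 and −1.30 and the lower pathway lies above 0, and in the bottom panel Slc2a3, Hk1, Hk2, Eno2, Eno3 and Slc16a3 are among the red points and Pfkp, Pgk1, Eno1 and Pkm among the blue.

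Other genes of the pathway were counted in the same way. Of 33 other glucose transporters and glycolytic enzymes, 18 passed the filter. Of these, 9 were higher and 1 lower in CD25+ than in FOXP3lo progenitors (median 0.83), beside 19.9% and 19.7% of all genes. The counts of the other lists in that comparison, above and below, stand beside the same shares. Against conventional cells, 7 were higher and 1 lower in CD25+ progenitors (median 0.24), beside 14.7% and 14.3% of all genes. In FOXP3lo progenitors 1 was higher and 6 lower (median −0.36), beside 12.8% and 12.3%. In mature Tregs 4 were higher and 2 lower (median −0.21), beside 15.1% and 15.3%. Mature Tregs against CD25+ progenitors had 0 higher and 8 lower by edgeR, beside 15.9% and 16.8%.

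Whether the difference linked to CD25 was the same with and without FOXP3 was asked by an interaction, the mature Treg against FOXP3lo difference minus the CD25+ progenitor against conventional difference. Of the 10 genes 1 was called higher and 0 lower, beside 5.46% and 5.39% of all genes, with a median of −0.042 against 0.0094. That gene was Slc2a3, whose CD25-linked difference was −1.12 without FOXP3 and 0.49 with it, an interaction of 1.61 ± 0.15 (edgeR, adjusted p = 3.75e-11). For Hk2 the same differences were 2.52 and 2.21, and their difference was not called (95% interval −1.06 to 0.43). For Pgk1 they were 0.86 and 0.45 (interaction −0.41 ± 0.14, adjusted p = 0.0589), which was called without CD25+ progenitor replicate 40 (−0.47), FOXP3lo replicate 43 (−0.47) or mature Treg replicate 43 (−0.45). Ldha, at 0.28 ± 0.10 (adjusted p = 0.0822), was called without conventional replicate 40 (0.33) or mature Treg replicate 43 (0.32).

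Outside the 10 genes, pathway genes had interactions of both signs. Of the 18 other transporters and enzymes 2 were called higher and 4 lower, beside 5.46% and 5.39% of all genes. The 5 tested export genes had 1 higher and 1 lower, and the 26 tested regulators 3 higher and 4 lower. Pfkfb3 had an interaction of −1.41 ± 0.14 (edgeR, adjusted p = 1.54e-10), with a CD25-linked difference of 1.44 without FOXP3 and 0.024 with it. Eno3 had one of −1.49 ± 0.18 (adjusted p = 7.14e-08) and Slc16a3 one of −1.82 ± 0.38 (adjusted p = 0.000504), both with a CD25-linked difference above 0 in either setting. Txnip, which restrains glucose uptake, had one of 1.06 ± 0.11 (adjusted p = 8.71e-10). It averaged 138 ± 16.2 CPM in CD25+ progenitors and 329.9 ± 28.4, 372 ± 21.4 and 324 ± 26.4 in the conventional, FOXP3lo and mature Treg gates.

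Branches off glycolysis were also read. Tkt, the transketolase of the pentose phosphate pathway, averaged 198 ± 16.7 CPM in CD25+ progenitors and 78.0 ± 5.60 in conventional cells (1.35 ± 0.08, edgeR, adjusted p = 1.52e-16), and 4 of 7 tested genes of that pathway were higher and 1 lower in CD25+ than in FOXP3lo progenitors. Phgdh and Psat1, which draw 3-phosphoglycerate into serine, were higher in CD25+ than in FOXP3lo progenitors by 1.30 ± 0.12 and 2.40 ± 0.17 (adjusted p = 2.12e-12 and 2.44e-15). The list of glycogen and sugar phosphate branches that holds them had 4 of 17 higher and 3 lower, near the 19.9% and 19.7% of all genes. Pdk1, a kinase that switches off pyruvate dehydrogenase, averaged 74.6 ± 6.39 CPM in CD25+ progenitors, 119 ± 9.80 in mature Tregs and 191 ± 14.3 in conventional cells (−1.35 ± 0.08 for CD25+ progenitors against conventional cells, adjusted p = 3.48e-17). Of the genes for pyruvate entry into mitochondria, 6 of 13 were higher and 3 lower in CD25+ than in FOXP3lo progenitors. Of the gluconeogenic enzymes, 3 of 7 were tested, and G6pc3 was higher (1.56 ± 0.39) and Pck2 lower (−0.80 ± 0.23).

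Known regulators of the pathway had no common direction. In CD25+ against FOXP3lo progenitors 6 of 26 were higher and 10 lower (median −0.093), beside 19.9% and 19.7% of all genes. Hif1a, a transcription factor that induces many glycolytic genes, averaged 129 ± 8.74 CPM in conventional cells and was higher in all 3 other gates, by 0.86 ± 0.07 in mature Tregs, 0.55 ± 0.07 in FOXP3lo progenitors and 0.61 ± 0.07 in the CD25+ gate (edgeR, adjusted p = 4.63e-13, 4.88e-08 and 3.33e-09). Myc, which also induces them, was higher in mature Tregs than in FOXP3lo progenitors by 0.97 ± 0.10 (adjusted p = 4.1e-10). Foxo1, which is held out of the nucleus when growth signalling is high, was lower in CD25+ than in FOXP3lo progenitors (log2 −1.05 ± 0.06, adjusted p = 6.07e-17), as was Pik3ip1, an inhibitor of PI3 kinase (log2 −1.21 ± 0.10, adjusted p = 2.21e-13). Of hypoxia-induced genes outside glycolysis, 6 of 16 were higher and 3 lower in that comparison, with Egln3, an oxygen-sensing hydroxylase, at 16.5 ± 0.756 CPM against 2.27 ± 0.768 and Bnip3l, which marks mitochondria for removal, lower (log2 −0.64 ± 0.08).

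Proliferation transcripts moved with the lower part of the pathway. Their sum over 29 genes was 1503 to 1722 CPM in CD25+ progenitors, 1274 to 1424 in conventional cells, 763 to 805 in mature Tregs and 619 to 632 in FOXP3lo progenitors, the same order of gates as for Pgk1 and Pkm. Of the 29 genes, 26 were higher and 0 lower in CD25+ than in FOXP3lo progenitors (median 1.55), beside 19.9% and 19.7% of all genes. In FOXP3lo progenitors against conventional cells 0 were higher and 27 lower (median −1.55, edgeR), beside 12.8% and 12.3%. CD25+ progenitors and conventional cells differed less, with 7 higher and 2 lower (median −0.021), beside 14.7% and 14.3%. Hk2, Aldoa, Pgk1 and Pkm were called higher in that comparison. Markers of CD8 and double-positive thymocytes summed to 454 to 550.3 CPM in CD25+ progenitors, 378 to 449 in conventional cells, 262 to 296 in FOXP3lo progenitors and 260.1 to 278 in mature Tregs, all 11 of them with a count in each of the 4 gates, and 9 of the 11 were higher and 1 lower in CD25+ than in FOXP3lo progenitors. Gamma-delta T cell markers summed to 44.9 to 51.3 CPM in CD25+ progenitors against 17.2 to 23.0 in the FOXP3lo gate, with 4 of 6 tested genes higher and 0 lower (median 4.305). Genes of T cell identity went the other way, at 3284 to 3590 against 4110 to 4205 CPM, with 1 of 10 higher and 8 lower (median −0.37). The sums of stromal markers, at 143 to 159 against 295 to 333 CPM, and of B cell markers, at 21.1 to 24.6 against 39.3 to 52.5, were also apart in those gates. The medians of both lists lay the other way. Of 4 tested stromal markers 1 was higher and 2 lower (median 0.29), and of 4 tested B cell markers 0 were higher and 1 lower (median 0.32). Markers of NKT and innate-like T cells, among them the shared cytokine receptor gene Il2rb, summed to 633 to 690.5 CPM in mature Tregs, 169.7 to 194 and 166 to 200.4 in the CD25+ and FOXP3lo gates and 21.9 to 32.6 in conventional cells. The part of any of these lists in the glycolysis results was not tested. Erythroid markers summed to at most 0.696 CPM in the 12 libraries.

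**Figure D5:**
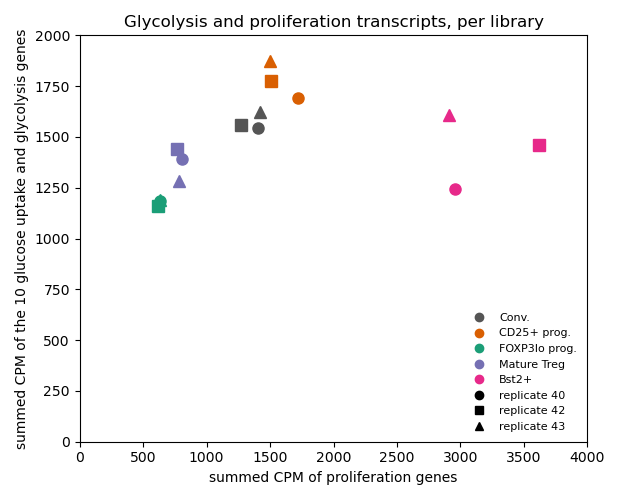
Summed CPM of the 10 glucose uptake and glycolysis genes (y axis) against summed CPM of 29 proliferation genes (x axis), with 1 point per library, coloured by gate and shaped by replicate number. FOXP3lo progenitors lie lowest on both axes, and the Bst2+ libraries lie at 2910 to 3620 on the x axis, beyond all others, with glycolysis sums of 1244 to 1608.

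The Bst2+ gate was compared with the mean of the CD25+, FOXP3lo and mature Treg gates, in a fit of all 15 libraries. That fit shares its estimate of spread over the gates, which lies below the spread of the Bst2+ replicates. The edgeR p-values of this comparison, those of Hk2, Pgk1 and Ldha included, can therefore be too small. Of the 10 genes 4 were called higher (Hk2, Aldoa, Pgk1 and Ldha) and 4 lower (Slc2a1, Slc2a3, Hk1 and Pfkp), beside 19.3% and 19.8% of 16069 genes, with a median of 0.011 against −0.025. Hk2 was at 12.4, 18.6 and 19.2 CPM in Bst2+ replicates 40, 42 and 43, a log2 difference of 1.01 ± 0.24 (edgeR, adjusted p = 0.00298). Pgk1 was at 103, 77.1 and 77.2 CPM (0.61 ± 0.11, adjusted p = 0.000248) and Ldha at 281, 292 and 327 CPM (0.30 ± 0.07, adjusted p = 0.00367). The Bst2+ libraries of Hk2 overlapped with CD25+ progenitors and mature Tregs, and those of Pgk1 and of Ldha overlapped with CD25+ progenitors. Aldoa was at 112, 139.9 and 126 CPM (0.26 ± 0.10, adjusted p = 0.044), and overlapped with CD25+ progenitors too.

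The other 5 calls in the Bst2+ gate were each lost in at least 1 of the 15 fits that left out a library. Slc2a1 was at 2.97, 18.1 and 12.1 CPM, a difference of −0.90 ± 0.34 (edgeR, adjusted p = 0.0436). Its call was lost in 12 of 15 fits that left out 1 library, kept only without CD25+ replicate 40, FOXP3lo replicate 40 or Bst2+ replicate 42, and the estimate went to −0.47 without Bst2+ replicate 40 and to −1.44 without Bst2+ replicate 42. Slc2a3, at 43.4, 23.8 and 50.0 CPM, had a difference of −0.49 ± 0.17 (adjusted p = 0.0292), and its call was lost without Bst2+ replicate 42 (−0.24). Hk1 was at 103, 109 and 166 CPM, a difference of −0.32 ± 0.12 (adjusted p = 0.0387). Its call was lost in 6 of 15 fits that left out 1 library, those without replicate 42 or 43 of the CD25+ or FOXP3lo gate or without Bst2+ replicate 40 (−0.20) or 42 (−0.23), and the estimate was −0.58 without Bst2+ replicate 43. Pfkp was at 45.7, 108 and 73.1 CPM, a difference of −0.45 ± 0.17 (adjusted p = 0.041). Its call was lost in 7 of 15 fits that left out 1 library, those without replicate 42 or 43 of the CD25+ or FOXP3lo gate, mature Treg replicate 42, or Bst2+ replicate 40 (−0.21) or 43 (−0.43), and the estimate was −0.81 without Bst2+ replicate 42. The calls of Slc2a1, Hk1 and Pfkp were also lost with RLE factors (adjusted p = 0.0525, 0.0714 and 0.0606) and with a filter of 2 CPM, and that of Hk1 with DESeq2 (adjusted p = 0.0586).

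The higher call of Aldoa was lost in 11 of 15 fits that left out 1 library, kept only without CD25+ replicate 43, FOXP3lo replicate 40, mature Treg replicate 42 or Bst2+ replicate 40, and its estimate was lowest without Bst2+ replicate 42 (0.17). It was also lost with no filter on low counts (0.22, edgeR, adjusted p = 0.172) and without the 20 most abundant genes (adjusted p = 0.0534). Eno1, at 209, 228 and 326 CPM, and Pkm, at 331, 446 and 430.4, were not called. Eno1 was called lower without replicate 43 (−0.25) and Pkm higher without replicate 40 (0.16). Limma-voom with sample weights called 1 of the 10 genes in this comparison, Pgk1.

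Other cell types and division moved with these libraries. The C1qa transcript of macrophages averaged 130.2 ± 42.4 CPM in the Bst2+ gate and at most 0.264 in the other gates, and all 14 markers of dendritic cells and macrophages had counts there, whereas C1qa, C1qc, Lyz2 and Mertk were at 0 in CD25+ progenitors. B cell markers summed to 69.0 to 1983 CPM in the Bst2+ libraries against 21.1 to 52.5 elsewhere, and plasmacytoid dendritic cell markers to 117 to 151 against 28.4 to 74.6. Markers of CD8 and double-positive thymocytes summed to 1241 to 1920 CPM against 260.1 to 550.3 and gamma-delta T cell markers to 119 to 329 against 17.2 to 51.3. All 29 proliferation genes were called higher, beside 19.3% of all genes. The sums of stromal markers, at 196 to 204 CPM, and of T cell identity genes, at 3479 to 3716, lay within the ranges of the other gates, 143 to 333 and 3062 to 4663. Single genes of both lists differed all the same. Of 6 tested stromal markers 3 were higher and 2 lower (median 2.21), beside 19.3% and 19.8% of all genes. Of 10 genes of T cell identity 3 were higher and 3 lower (median −0.0067), beside the same shares. Hk3, a hexokinase of myeloid cells, averaged 7.05 ± 4.11 CPM in the Bst2+ gate and at most 0.5002 elsewhere. The part of these cells and of proliferation in the Bst2+ results was not tested.

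The genes most like Slc2a1 and Ldha in their pattern were sought among 9094 named genes with a mean of at least 5 CPM, by Pearson's r of log2 CPM over the 12 libraries of 4 gates. Since libraries of 1 gate lie together, r mostly measures how alike the gate means are, and no p is given. For Slc2a1 these were Cd226 (0.909), Tor1aip2 (0.890), Pkp3 (0.888), Coro1b (0.883) and Ap5m1 (0.877). Cd226, an activating receptor of T cells, averaged 53.8 CPM in CD25+ progenitors, 69.1 in conventional cells, 73.8 in the FOXP3lo gate and 78.4 in mature Tregs. Slc2a3 ranked 17 for likeness to Slc2a1 (0.856), while Ldha stood at −0.48. For Ldha the closest were Psmb2 (0.977), Bysl (0.965), D8Ertd738e (0.955), Eef1aknmt (0.951) and Mrpl12 (0.951). Psmb2 encodes a proteasome subunit and Mrpl12 a protein of the mitochondrial ribosome, and Pgk1 ranked 280 (0.843).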

How the data were processed

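The authors deposited 1 table of unnormalized counts for 15 libraries. Per the file headers, featureCounts 1.6.2 counted read pairs on the reverse strand against Ensembl 97 genes (GRCm38), where both mates aligned with a mapping quality of 10 or more. HISAT2 2.1.0 and Trimmomatic 0.33 are named, with featureCounts 1.4.6, per the submitters' processing notes. The table holds gene IDs only, so genes were named by position against RefSeq of the same build (GRCm38.p6), which named 35360 of 55573 genes and 274 of 281 entries in 20 lists, the 10 genes among them. The 10 genes and the lists were chosen with earlier results of these data known.

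Counts were tested in R 4.3.3 with edgeR 4.0.16 (quasi-likelihood, robust, filterByExpr, TMM, Benjamini-Hochberg), over 12 libraries (15648 genes) for the 4 gates without BST2 and over 15 (16069 genes) for the Bst2+ gate. Isoenzyme ratios were computed from counts per kb with 0.5 added. Named genes are the 10 genes, up to 3 called genes per list and comparison by smallest adjusted p, the 5 genes most like Slc2a1 and Ldha, and genes that check the gates. Pfkl, Pfkm and Ldhb are named as partners in the isoenzyme ratios. Lyz2 and Mertk, named as markers at 0, were chosen after their values were seen. Alternatives were a block for the replicate number, RLE factors, no filter, a filter of 2 CPM in 3 libraries, a fold threshold of 1.5, the 20 most abundant genes left out, limma-voom (3.58.1) with and without sample weights, DESeq2 1.42.0, fits of only the groups compared, all 15 libraries together, and each library left out. Fits were tested on simulated data. Sequences and promoter motifs were not analysed here. Amplified reads are not independent molecules, so counting precision covers counting error only. The fewest counts of any of the 10 genes in a library were 31, for Slc2a1.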

Additional observations from a re-analysis of the deposited data

Results flagged for a closer look

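Slc2a3 stood out because its difference between gates with and without CD25 ran in opposite directions with and without FOXP3. The log2 interaction was 1.61 ± 0.15 (edgeR, adjusted p = 3.75e-11, 95% interval 1.31 to 1.90), and it ranged from 1.49 to 1.67 when single libraries were left out. All 3 CD25+ progenitor libraries lay below the conventional libraries, and all 3 mature Treg libraries lay above the FOXP3lo progenitor libraries.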

How the results depend on the processing

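Of the 10 genes, the number called in each comparison is given here in the order CD25+ progenitors, FOXP3lo progenitors and mature Tregs against conventional cells, CD25+ against FOXP3lo progenitors, mature Tregs against CD25+ and against FOXP3lo progenitors, the interaction, and the Bst2+ gate. The numbers were 5, 7, 7, 9, 9, 4, 1 and 8. Tested against a fold of 1.5, they were 3, 0, 1, 5, 2, 1 (Hk2), 1 and 0. With all 15 libraries in the fit of the 4 gates they were 4 for FOXP3lo progenitors and 4 for mature Tregs against conventional cells, 5 and 2 for mature Tregs against CD25+ and FOXP3lo progenitors, and within 1.5 times the stated number otherwise. The interaction gave 2 with the filter of 2 CPM and with limma-voom with sample weights. The Bst2+ gate gave 5 with RLE factors, 5 with the filter of 2 CPM and 1 with limma-voom with sample weights. Leaving out single libraries gave 5 to 6, 6 to 7, 6 to 7, 8 to 9, 7 to 9, 4 to 5, 1 to 3 and 4 to 8.

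Over all genes, the first 7 comparisons called 4534, 3925, 4756, 6187, 5114, 2919 and 1698, and with all 15 libraries 1871, 1400, 1957, 3069, 2096, 759 and 378. Against a fold of 1.5 they called 1152, 867, 1437, 2058, 1338, 412 and 369, and the Bst2+ comparison 2795 of its 6286, or 2300 with limma-voom with sample weights. The cause was not tested.

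With the replicate number as a block (replicate block), the numbers called of the 10 genes were 5, 7, 7, 9, 9, 4, 1 and 7, with Aldoa lost in the Bst2+ gate (0.25, adjusted p = 0.0558 by edgeR). Deviations of same-numbered libraries from their gate means had correlations across genes of −0.01 to 0.054, and in 26 of 36 cases a library correlated best with its own number in another gate, against 12 if each of the 3 numbers were equally likely. Correlations averaged 0.019 for the same number and −0.0095 for other numbers, a sign of a shared effect that is small in size. The labels do not say what a number marks, so the main fit did not pair the libraries, and the block is given as the paired alternative. The isoenzyme ratios differed in the same direction in all 3 same-numbered pairs of libraries in 31 of 42 comparisons. The 25 comparisons with libraries apart are among these by necessity, and the comparisons share gates, so this number is a description.

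Some estimates changed sign, none of them called in the results above. Of these, 2 were called in a single fit, both in the Bst2+ gate, Eno1 without Bst2+ replicate 43 and Pkm without Bst2+ replicate 40. Leaving out single libraries gave −0.063 to 0.0085 for Eno1 in CD25+ progenitors against conventional cells, −0.34 to 0.066 for Hk2 in FOXP3lo progenitors against conventional cells, −0.084 to 0.051 for Ldha in mature Tregs against conventional cells, −0.11 to 0.037 for Pfkp in mature Tregs against FOXP3lo progenitors, and −0.061 to 0.040 for the interaction of Hk1. In the Bst2+ gate it gave −0.25 to 0.091 for Eno1 and −0.043 to 0.16 for Pkm, and Eno1 was at 0.027 with RLE factors, 0.011 with the filter of 2 CPM and 0.027 with DESeq2. Of 990 fold changes of the 10 genes from fits without 1 library, 911 kept their direction and their side of the threshold. In comparisons of 2 gates, these include fits without a library of some other gate, which are a weaker test. The libraries were apart in 25 of 42 comparisons of isoenzyme ratios. Division by length shifts the log2 ratio of a pair equally in every library, so it could not change this number.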
